A study of Mus musculus with 8 samples.

Results

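Hes1, Hes5, Hes6, Hes7, Hey1, Hey2, Heyl and Nrarp are genes grouped here as Hes and Hey Notch targets, and their RNA was followed here in mouse embryoid bodies, aggregates of embryonic stem cells that give rise to tissues of all germ layers. They were picked by gene name, 8 of 52281 named loci in the deposited table, and each sat at a locus that carries its name alone. The libraries came from embryoid bodies on a C57BL/6 background at day 9, grown in Knock-out DMEM with 10% FBS, in 4 groups of 2 libraries. The groups were a PRDM16 KO (called Prdm16 knockout here), its WT set (Prdm16 control), a PR domain KO that the titles place at exon 4 (PR domain knockout), and a separate WT set (PR domain control). Prdm16 encodes a DNA-binding zinc finger protein, and its PR domain resembles the SET domain that histone methyltransferases use for catalysis. The series was designed to find expression that depends on the whole protein or on that domain. No label used here says how the alleles were made or whether each line was 1 clone. Nor does any say whether the libraries of a group came from separate cultures. The p-values set each difference against the spread between libraries of a group, which may be technical. For each gene that spread was estimated largely from all tested loci together.

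When a Notch receptor binds a Delta or Jagged ligand on a neighbouring cell, its intracellular part is cut free, enters the nucleus and, with RBPJ and Mastermind-like proteins, switches on a small set of targets. Hes and Hey proteins are the best known of these, basic helix-loop-helix repressors with an Orange domain that bind DNA as dimers and recruit corepressors such as the Groucho/TLE proteins. Hes1 and Hes5 hold neural progenitors undifferentiated, Hes7 runs the segmentation clock of the presomitic mesoderm, Hes6, known more as a gene that proneural factors drive than as one that Notch induces, counters Hes1, Hey1 and Hey2 act in the heart and in arterial endothelium, and Heyl is known from smooth muscle and other vascular cells. Nrarp is no transcription factor but a small ankyrin repeat protein that Notch induces and that binds the Notch intracellular domain and RBPJ to damp the pathway.

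The sequences just before and at the start sites show where such binding could be read from the DNA, and 3 of them are printed because their genes gave the contrasting values described below: Hes5 was at 0 in the Prdm16 knockout, Hey2 was lower in the PR domain knockout, and Nrarp was lower in both. Each is 5′ to 3′ on the gene's strand, 300 bases from 250 before the RefSeq start site onward, from RefSeq on GRCm38.p6. Capitals mark the 7-base form of the RBPJ site, GTGGGAA, which on the other strand reads TTCCCAC, or an E-box, CACGTG, a kind of site that Hey proteins can bind.
Hes5 (chr4:154960673-154960972, plus strand): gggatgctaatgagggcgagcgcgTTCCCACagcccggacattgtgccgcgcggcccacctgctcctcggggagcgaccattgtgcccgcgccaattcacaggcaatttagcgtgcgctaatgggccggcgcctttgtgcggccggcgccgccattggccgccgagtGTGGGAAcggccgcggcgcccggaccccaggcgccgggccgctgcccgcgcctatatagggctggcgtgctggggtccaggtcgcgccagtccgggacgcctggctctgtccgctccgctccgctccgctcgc
Hey2 (chr10:30842734-30843033, minus strand): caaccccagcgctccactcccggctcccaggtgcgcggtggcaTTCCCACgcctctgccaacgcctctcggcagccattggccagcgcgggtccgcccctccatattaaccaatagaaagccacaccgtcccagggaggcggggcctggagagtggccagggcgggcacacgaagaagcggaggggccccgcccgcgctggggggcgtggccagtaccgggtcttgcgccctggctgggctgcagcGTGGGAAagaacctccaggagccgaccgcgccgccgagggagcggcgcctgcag
Nrarp (chr2:25180508-25180807, plus strand): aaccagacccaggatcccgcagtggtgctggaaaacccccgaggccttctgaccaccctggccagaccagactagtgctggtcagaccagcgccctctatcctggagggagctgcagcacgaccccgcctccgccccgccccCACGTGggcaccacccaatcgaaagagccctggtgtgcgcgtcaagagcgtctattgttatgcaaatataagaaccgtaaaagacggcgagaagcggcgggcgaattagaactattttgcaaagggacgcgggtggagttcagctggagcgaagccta

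Hes5 held GTGGGAA at 83 bases upstream of the start site and its reverse at 226 bases upstream, and Hey2 held it at 4 bases and its reverse at 207 bases upstream. In the table of RefSeq promoters 5 of the 8 genes had an entry, and beside these Hes7 held the reverse form at 180 bases upstream and a class C site, CACGCG, at 14 bases upstream. Both windows of Hes6 and the window of Nrarp held no copy of the 6-base core TGGGAA, which lies within GTGGGAA. Nrarp had its E-box 108 bases upstream. Searched on both strands over all 32851 windows of this length, TGGGAA occurred in 25.6%, GTGGGAA in 6.38%, CACGCG in 9.27% and CACGTG in 7.15%. Pairs of the core facing opposite ways 10 to 25 bases apart occurred in 0.17% of windows and in none of these genes. Hes1, Hey1 and Heyl were not among the windows. A match describes letters and does not show a bound site.

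Levels are normalised fragments, the number of fragments at a locus over the size factor of its library, and levels between genes are compared in FPKM, which also divides by transcript length. The libraries held 6273789 to 9086885 recovered fragments at named loci. Prdm16 itself had 11.2 and 1.10 normalised fragments in the Prdm16 knockout, against 24.4 and 26.3 in its control, and 23.3 and 15.7 in the PR domain knockout, against 44.6 and 22.7 in its control. Its change in the Prdm16 knockout was -2.38 ± 0.50 on the log2 scale (SE, limma adjusted p = 0.000306). In the PR domain knockout it did not pass the test (adjusted p = 0.377), and fragments outside a deleted exon would still count, so a whole-gene level does not check that label. The sum over 4 Y-linked genes was 0 and 1.10 normalised fragments in the Prdm16 knockout, against 1246 and 1323 in its control, and 3082 to 3167 in the PR domain knockout, against 2750.5 and 2752 in its control. The Prdm16 knockout therefore differs from its control in Y-linked RNA as well as in its allele, and for every gene below these cannot be told apart.

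Hes1 was the most abundant of the 8 genes, at a mean of 28.0 FPKM over the 8 libraries with a range of 18.8 to 35.8. Hes6 followed with a mean of 13.4 FPKM (11.2 to 16.1) and Hey1 with 12.7 FPKM (8.82 to 18.0), ranges that overlapped. Hey2, Heyl and Nrarp came to 4.41, 3.86 and 3.47 FPKM, also with overlapping ranges. Hes5 averaged 0.417 FPKM and Hes7 0.145 FPKM. Dividing normalised fragments by the union of the annotated exons instead kept Hes1, Hes6 and Hey1 on top, at 120, 74.9 and 68.9 per kb, and put Nrarp (29.2 per kb) above Hey2 (20.4 per kb) and Heyl (15.0 per kb). The 6 genes from Hes1 to Nrarp passed the filter on low values (at least 10 in at least 2 libraries) and were tested, whereas Hes5 and Hes7 did not. In embryoid bodies sampled whole, fewer cells of a type and less RNA per cell cannot be told apart.

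**Figure D1:**
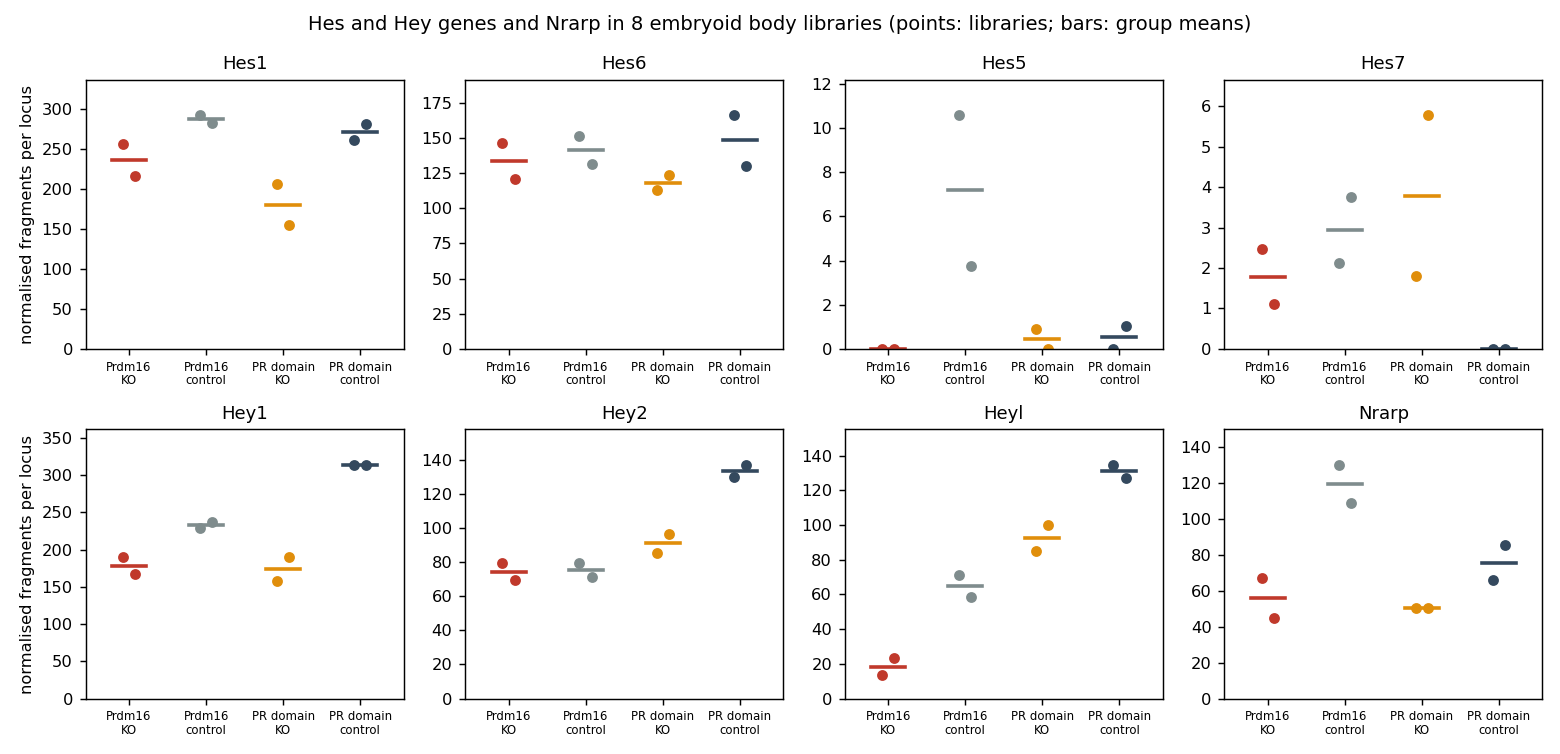
Normalised fragments per locus (vertical axis) of the 8 genes in each library (points), with the group mean as a bar, by group along the horizontal axis. Heyl was lowest in the Prdm16 knockout, at 13.6 and 23.1, and Hey2 and Heyl were highest in the PR domain control, at 127 to 137.

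In the Prdm16 knockout, 4 of the 6 tested genes were lower than in the control and none was higher. Heyl and Nrarp fell most, to 0.288 and 0.466 of the control level, and Hey1 and Hes1 fell less, while Hes6 and Hey2 did not pass the test. Among all 16623 loci tested, 21.1% were called lower and 18.0% higher in this comparison, so calls were common throughout. The median log2 change was -0.34 over the 6 genes and -0.03 over all loci. In the 4 called genes both knockout libraries lay below both controls, which held for 36.5% of all loci.

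Heyl (4:123233556-123249875 on GRCm38, plus strand) had 13.6 and 23.1 normalised fragments in the Prdm16 knockout, against 71.0 and 58.3 in its control. Both knockout libraries lay far under both controls. The change was -1.80 ± 0.22 on the log2 scale (SE, limma adjusted p = 7.78e-08), and it passed under all 20 alternative settings. Nrarp (2:25180758-25183339, plus strand), the feedback inhibitor, had 67.0 and 45.1 in the Prdm16 knockout, against 130 and 109 in its control. Here too the groups were apart, and the change of -1.10 ± 0.20 (limma adjusted p = 5.00e-05) passed under all of its 21 settings.

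Hey1 (3:8663359-8667256, minus strand) had 190 and 167 normalised fragments in the Prdm16 knockout, against 229 and 237 in its control. The groups did not overlap, and the change was -0.38 ± 0.11 (limma adjusted p = 0.00590). Without Prdm16 knockout replicate 2 it was -0.29 with an adjusted p of 0.0812, and it also missed the threshold with DESeq2 (0.113) and on FPKM (0.159). Its relative Hey2 (10:30832359-30842801, minus strand) had 79.4 and 69.3 in the Prdm16 knockout, against 79.5 and 71.5 in its control. These values overlapped, with a log2 difference of -0.02 and a 95% interval of -0.35 to 0.31.

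Hes1 (16:30064384-30067796, plus strand) had 256 and 216 normalised fragments in the Prdm16 knockout, against 293 and 282 in its control. The libraries did not overlap, but the change of -0.29 ± 0.12 stood at the edge of the threshold (limma adjusted p = 0.0485) and was lost under 12 of 20 alternative settings. It stood at -0.17 without Prdm16 knockout replicate 2 (adjusted p = 0.37), at -0.26 without Prdm16 control replicate 1 (0.192), at -0.32 without Prdm16 control replicate 2 (0.111), and at -0.06 on FPKM (0.874). Without PR domain control replicate 1 or 2, which enter the shared spread, the adjusted p was 0.0543 or 0.0551, and with TMM scaling it was 0.105. Hes6 (1:91411483-91414038, minus strand), which counters Hes1, had 146 and 121 in the Prdm16 knockout, against 152 and 132 in its control. The groups overlapped and the log2 difference was -0.09 (95% interval -0.38 to 0.21).

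Hes5 (4:154960923-154962371, plus strand) had no fragment in either Prdm16 knockout library, against 10 and 4 fragments in the control. With a floor of 3 fragments over the group, it was at least 3.99-fold lower in the Prdm16 knockout. Hes5 was near absent in the other groups, at 1 and 0 fragments in the PR domain knockout, against 0 and 1 in the PR domain control. Hes7 (11:69120404-69124055, plus strand) had 2 and 1 fragments in the Prdm16 knockout, against 2 and 4 in its control, a ratio of 58.5% with an exact 95% interval of 9.47 to 274% that covers counting error only. In the PR domain knockout Hes7 had 2 and 7 fragments, against 0 and 0 in the PR domain control. Against the same floor for that control it was 2.52-fold higher, with the knockout count again taken as exact. With no filter, which tested 28946 loci, limma gave Hes5 an adjusted p of 0.0055 in the Prdm16 knockout and Hes7 one of 0.0503 in the PR domain knockout. On the opposite strand, Gm20421 shares 433 exon bases with Hes5 and 9130213A22Rik shares 234 with Hes7, and neither exceeded 2.12 normalised fragments in any library.

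In the PR domain knockout, 4 of the 6 tested genes were again lower than in their control and none was higher, with Hes1, Hey1 and Nrarp called in both knockouts. Hey1 fell most, to 0.553 of the control level, and Hes1, Hey2 and Nrarp fell to between 0.662 and 0.683, while Heyl and Hes6 did not pass the test. Over all loci tested, 10.7% were called lower and 8.48% higher. The median log2 change was -0.56 over the 6 genes and -0.03 over all loci. In all 6 genes both knockout libraries lay below both controls, which held for 31.9% of all loci.

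Hey1 had 158 and 190 normalised fragments in the PR domain knockout, against 314 in each PR domain control library. The change was -0.85 ± 0.11 on the log2 scale (SE, limma adjusted p = 6.17e-07) and passed under all 20 alternative settings. Hey2 had 85.2 and 96.8 in the PR domain knockout, against 130 and 137 in its control. Its groups were well apart, and it fell by 0.55 ± 0.16 on the log2 scale (limma adjusted p = 0.0142). The call on Hey2 was lost without PR domain knockout replicate 1 (-0.46, adjusted p = 0.135), without PR domain control replicate 1 (-0.59, 0.0568) or replicate 2 (-0.51, 0.112), with DESeq2 (0.15) and on FPKM (0.127).

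Hes1 had 206 and 155 normalised fragments in the PR domain knockout, against 261 and 281 in its control. The groups did not overlap and the change was -0.60 ± 0.12 (limma adjusted p = 0.000292), lost under 1 of 20 settings, on FPKM (-0.51, adjusted p = 0.232). It was -0.39 without PR domain knockout replicate 2 (adjusted p = 0.0393) and -0.80 without replicate 1. Hes6 had 113 and 123 in the PR domain knockout, against 166 and 130 in its control. The control libraries spread widely, and the log2 difference of -0.31 ± 0.14 did not pass the test (limma adjusted p = 0.136). Leaving out PR domain control replicate 1 gave -0.14 (0.699), and leaving out replicate 2 gave -0.49 (0.056).

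Heyl had 85.2 and 100.1 normalised fragments in the PR domain knockout, against 135 and 127 in its control. The groups were apart, yet the log2 difference of -0.50 ± 0.22 did not pass (limma adjusted p = 0.114). It passed with edgeR (-0.47, 0.0273), in the fit of the compared groups alone (0.0244) and without Prdm16 knockout replicate 1 (0.0437), and it turned to +0.57 on FPKM (0.0961). Nrarp had 50.2 and 50.5 in the PR domain knockout, against 65.9 and 85.7 in its control. It fell by 0.57 ± 0.20 on the log2 scale (limma adjusted p = 0.0442), a call lost under 12 of 21 settings. Without PR domain control replicate 2 the value was -0.38 (adjusted p = 0.366). Without PR domain knockout replicate 1 or 2, or Prdm16 control replicate 1 or 2, it stayed at -0.57 with adjusted p of 0.0578 to 0.149.

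**Figure D2:**
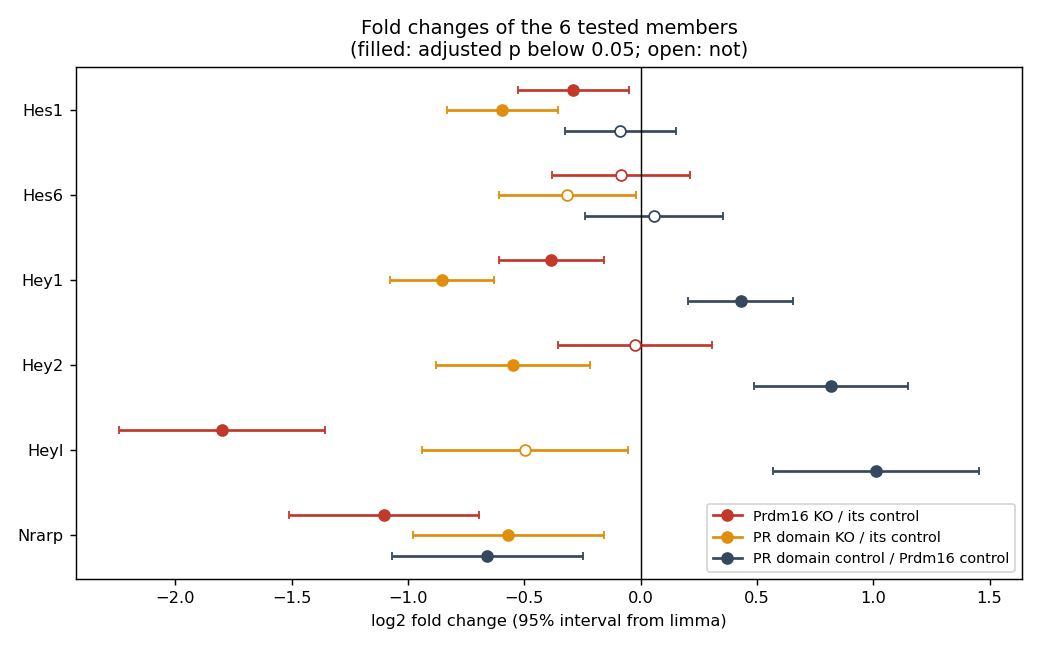
Log2 fold changes (horizontal axis) with 95% intervals from limma for the 6 tested genes (vertical axis), for each knockout against its own control and for the PR domain control against the other wild-type set. Filled points have an adjusted p below 0.05. Heyl lay at -1.80 in the Prdm16 knockout and at -0.50 in the PR domain knockout, whereas Hey1 lay at -0.38 and -0.85.

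Whether the knockouts differed was tested as the Prdm16 knockout effect minus the PR domain knockout effect. Among the 6 genes, 1 was called lower and 1 higher, where 7.81% and 8.60% of all loci were. For Heyl the difference was -1.30 ± 0.31 on the log2 scale, toward lower values when Prdm16 was knocked out (limma adjusted p = 0.00324), and this passed under all settings with values from -2.06 to -0.94. For Hey1 the difference was +0.47 ± 0.16 (limma adjusted p = 0.0366), meaning a smaller fall in the Prdm16 knockout, and it was lost under 10 of 19 settings. Among these, the adjusted p was 0.137 without Prdm16 knockout replicate 1, 0.108 and 0.0709 without Prdm16 control replicate 1 and 2, 0.198 without PR domain knockout replicate 1, and 0.0977 and 0.0909 without PR domain control replicate 1 and 2. Hes1 (0.31, 95% interval -0.03 to 0.64), Hes6 (0.23, -0.19 to 0.65), Hey2 (0.53, 0.06 to 1.00) and Nrarp (-0.53, -1.11 to 0.05) did not pass. The value for Hes1 was 0.51 without PR domain knockout replicate 1 (adjusted p = 0.0416), 0.099 without replicate 2 (0.76) and 0.18 without Prdm16 knockout replicate 1 (0.556). For Nrarp it was -0.81 without Prdm16 knockout replicate 1 (0.0592), -0.25 without replicate 2 (0.623) and -0.35 without PR domain control replicate 1 (0.538). For Hes6 it ran between 0.053 and 0.41 when 1 library was left out.

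The 2 wild-type sets were themselves apart for 4 of the 6 genes, in a comparison that shares its libraries with those above. In the PR domain control Hey1, Hey2 and Heyl were higher than in the Prdm16 control and Nrarp was lower, where 16.3% of all loci were called higher and 16.7% lower. Heyl had 135 and 127 normalised fragments in the PR domain control, against 71.0 and 58.3 in the Prdm16 control, a log2 difference of 1.01 ± 0.22 (limma adjusted p = 0.000459). On FPKM this difference was 0.12 and the call was lost (adjusted p = 0.651). For Hey2 the difference was 0.82 ± 0.16 (limma adjusted p = 0.000184), with 130 and 137 in the PR domain control, against 79.5 and 71.5 in the Prdm16 control. Even in the PR domain knockout Heyl, at 85.2 and 100.1, stood above both Prdm16 control libraries. The libraries of the 2 sets did not overlap for 3 genes higher in the PR domain control (32.1% of all loci) and 2 lower, Hes1 and Nrarp (33.1%).

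The difference between the wild-type sets was 0.43 ± 0.11 for Hey1 (limma adjusted p = 0.00281) and -0.66 ± 0.20 for Nrarp (0.0110). Nrarp's call was lost without Prdm16 control replicate 1 (-0.53, adjusted p = 0.14) and without PR domain control replicate 1 (-0.47, 0.165), and also with DESeq2 (0.0729), on FPKM (0.13) and with no filter (0.0586). Hey1's was lost on FPKM (0.32, 0.144). Hes5 had 0 and 1 fragments in the PR domain control, against 10 and 4 in the Prdm16 control (limma adjusted p with no filter = 0.0189), and Hes7 had 0 and 0, against 2 and 4 (0.0443). Hes1 and Hes6 differed by -0.09 (95% interval -0.33 to 0.15) and 0.06 (-0.24 to 0.35). Ordered by mean over the 4 groups, Hey1, Hey2, Hes6 and Heyl were highest in the PR domain control, while Hes1 and Nrarp were highest in the Prdm16 control. The Hes6 order was one of overlapping neighbours throughout. Other overlaps were between the Prdm16 knockout and the PR domain knockout for Hey1, and between the Prdm16 control and its knockout for Hey2. For Nrarp the Prdm16 knockout overlapped both the PR domain control and the PR domain knockout, which did not overlap each other.

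For Heyl the 2 deposited units differed in direction in 1 comparison. On FPKM it stood at 0.781 and 0.623 in the Prdm16 knockout, against 4.15 and 3.44 in its control, and at 7.02 and 6.41 in the PR domain knockout, against 3.89 and 4.53 in its control. The fall in the Prdm16 knockout was thus seen in both units, whereas in the PR domain knockout the fragments were lower and the FPKM higher. The higher fragments of the PR domain control over the Prdm16 control were not matched in FPKM, where the 2 sets overlapped. FPKM rests on the transcripts to which fragments were assigned, and 3 are annotated for Heyl, of 4537, 374 and 623 bases. Normalised fragments per FPKM unit came to 17.5 and 37.1 in the Prdm16 knockout, against 17.1 and 16.9 in its control, and to 12.1 and 15.6 in the PR domain knockout, against 34.7 and 28.0 in its control. This 3.06-fold range compares with a ratio that was constant for Nrarp (21.7) and Hes7 (14.7), each with 1 annotated transcript, and with ranges of 1.61-fold for Hes1, 1.35-fold for Hey1, 1.16-fold for Hes6 and 1.04-fold for Hey2. For Hes5 the ratio ranged 5.36-fold over the 4 libraries with a fragment: 10 fragments gave 1.08 FPKM and 4 fragments gave 2.06 FPKM in the Prdm16 control.

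**Figure D3:**
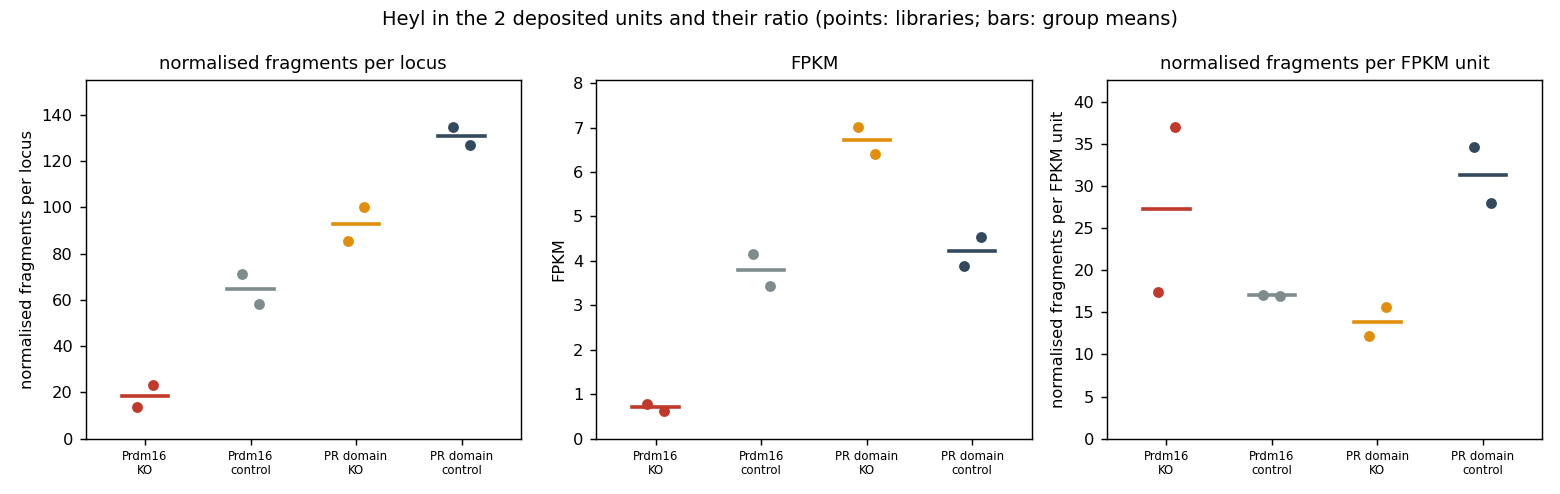
Heyl in each library (points; bars are group means) as normalised fragments, as FPKM and as normalised fragments per FPKM unit (vertical axes), by group. In FPKM the PR domain knockout lay above its control, at 6.41 and 7.02 against 3.89 and 4.53, while its normalised fragments lay below.

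Nrarp shares 2051 of its 2582 exon bases with Gm38287, a gene annotated antisense to it. No source used here says whether counting used strand, and without strand the reads of the pair cannot be told apart. Gm38287 had 45.9 and 36.3 normalised fragments in the Prdm16 knockout, against 68.9 and 94.1 in its control, and 32.3 and 38.0 in the PR domain knockout, against 75.0 and 59.9 in its control. It fell in both, by 0.96 ± 0.22 (limma adjusted p = 0.000853) and 0.92 ± 0.22 (0.00289) on the log2 scale. The sum of both loci, an alternative added after seeing the data, was 113 and 81.4 in the Prdm16 knockout, against 199 and 203 in its control, and 82.5 and 88.5 in the PR domain knockout, against 141 and 146 in its control. The summed value changed by -1.06 ± 0.15 (limma adjusted p = 9.36e-07) in the first and by -0.74 ± 0.15 (0.00038) in the second.

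**Figure D4:**
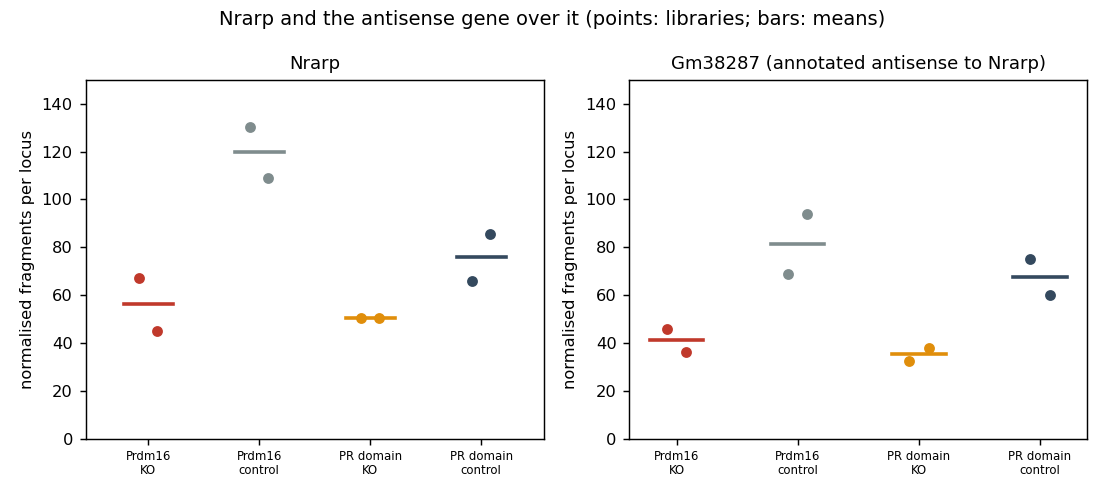
Normalised fragments (vertical axis) of Nrarp and of Gm38287, annotated on the opposite strand, in each library (points; bars are group means) by group. Both genes were lower in each knockout than in its own control, with Gm38287 at 32.3 to 45.9 in the knockouts and 59.9 to 94.1 in the controls.

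Upstream of these targets, the ligands and receptors of the pathway were mostly lower too. All 8 tested of 9 listed genes were called lower in the Prdm16 knockout, where 21.1% of all loci were. Their median log2 change was -1.33 (-0.03 over all loci). In the PR domain knockout 6 fell and 1 rose, where 10.7% of all loci were called lower and 8.48% higher. The median there was -0.83 (-0.03 over all loci). Jag1, a ligand, had 93.1 and 94.6 normalised fragments in the Prdm16 knockout, against 229 and 262 in its control (-1.38 ± 0.11, limma adjusted p = 3.44e-11). Dll4, the ligand of arterial endothelium, had 34.1 and 31.4 in the PR domain knockout, against 139 and 116 in its control (-1.92 ± 0.24, limma adjusted p = 2.81e-07). Notch1 fell by 0.93 ± 0.09 and 0.84 ± 0.09 in the Prdm16 and PR domain knockouts. Notch2 rose in the PR domain knockout, by 0.31 ± 0.06, at a locus that, like that of Jag2, also carries a second gene name. In the Prdm16 knockout its change of -0.14 ± 0.06 stood at the edge of the threshold (limma adjusted p = 0.0497).

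Of 19 genes for cleavage, glycosylation and the nuclear complex, 3 fell and none rose in the Prdm16 knockout (Maml3, Mfng and Pofut1). Maml3 alone fell in the PR domain knockout. Over all loci tested, 21.1% were called lower and 18.0% higher in the Prdm16 knockout, and 10.7% and 8.48% in the PR domain knockout. Maml3, a Mastermind-like coactivator, changed by -0.46 ± 0.09 where Prdm16 was knocked out and by -0.29 ± 0.09 in the PR domain knockout. Rbpj, the DNA-binding partner, had 357 and 352 normalised fragments in the Prdm16 knockout, against 320 and 301 in its control (limma adjusted p = 0.0866), and 317 and 296 in the PR domain knockout, against 289 and 272 in its control (0.374). Of 7 inhibitors and turnover genes, 3 rose and 2 fell in the Prdm16 knockout, and 1 rose and 1 fell in the PR domain knockout. Dlk1, a membrane protein known to inhibit Notch, rose in both, by 1.27 ± 0.04 and 0.53 ± 0.04 on the log2 scale. Fbxw7, which marks the Notch intracellular domain for degradation, fell by 0.38 and 0.51.

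Other genes known to respond to Notch, a list that counts Notch3 a second time, fell in 6 of 9 tested cases when Prdm16 was knocked out and in 5 of 9 in the PR domain knockout, with median log2 changes of -0.69 and -0.31 and no rise. Without Notch3 these were 5 of 8 and 4 of 8. The shares of all loci called lower were 21.1% and 10.7%, and those called higher 18.0% and 8.48%. Ccnd1, a cyclin, changed by -1.09 ± 0.08 in the Prdm16 knockout, and Efnb2, the arterial ephrin ligand at a locus with a second name, by -0.63 ± 0.05 there and -0.84 ± 0.05 in the PR domain knockout. Of 11 corepressor genes tested, 4 fell in the Prdm16 knockout, including Tle1 (-0.75 ± 0.10) and Tle4 (-0.46 ± 0.08), and in the PR domain knockout Tle4 (-0.37 ± 0.08) and Sirt1 (-0.27 ± 0.09) fell while Tle3 (0.29 ± 0.05) rose. Of 5 other Orange-domain repressors, Hes2 was at 0 in every library and Hes3 and Helt had at most 2.12 normalised fragments. Bhlhe40 had 507 and 460 in the Prdm16 knockout, against 283 and 303 in its control, a rise of 0.72 ± 0.08 (limma adjusted p = 3.83e-08), the opposite direction to the Hes and Hey genes called there. In the PR domain knockout Bhlhe40 did not pass (-0.11, adjusted p = 0.40), while Bhlhe41, with 49.3 and 52.1, against 25.4 and 38.2 in its control, rose by 0.69 ± 0.23 (0.0331). Bhlhe41 did not pass in the Prdm16 knockout (-0.08, 0.819).

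Among 8 proneural genes that Hes factors repress, Neurod1 alone passed the filter, at a locus with a second name, and its value of 0.55 ± 0.22 in the Prdm16 knockout was near the threshold (limma adjusted p = 0.0486). Atoh1 was at 0 in every library. Of 15 genes of the segmentation clock and presomitic mesoderm, 6 were tested. Axin2 (-1.08 ± 0.18) and Dusp4 (-0.23 ± 0.07) fell in the Prdm16 knockout, and Dusp4 (-0.86 ± 0.07) fell in the PR domain knockout. Calls over all loci came to 21.1% lower and 18.0% higher in the Prdm16 knockout, and 10.7% and 8.48% in the PR domain knockout. Msgn1, a defining gene of presomitic mesoderm, was at 0 in every library.

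Markers of cell types known to use these genes also differed between the groups. Beside the marker counts that follow, 21.1% of all loci were called lower and 18.0% higher in the Prdm16 knockout. The shares in the PR domain knockout were 10.7% and 8.48%. Summed over 12 neural progenitor markers, normalised fragments came to 1065 and 1097 in the Prdm16 knockout, against 1774 and 1810 in its control, with 9 of 12 called lower and Lhx2 higher. They came to 1363 and 1391 in the PR domain knockout, against 1987 and 2043 in its control, with 5 of 12 lower. Six3 was at 0 in both PR domain knockout libraries, against 3.04 and 6.19 in its control, at a locus with a second name. Nes alone held 937 and 908 normalised fragments in the PR domain knockout, and 1285 and 1260 in its control. Of the neural progenitor markers, Sox21 changed by -3.64 ± 0.35 and Sox2 by -2.03 ± 0.14 in the Prdm16 knockout. The 12 endothelial markers summed to 4744 and 4922.5 in the Prdm16 knockout, against 5450 and 5492 in its control (8 lower, 2 higher), and to 5139 and 5220 in the PR domain knockout, against 7506 and 7692 in its control (all 12 lower). Gja5, an arterial connexin, changed by -1.71 ± 0.20 where Prdm16 was knocked out and by -1.46 ± 0.20 in the PR domain knockout. The 2 called higher in the Prdm16 knockout were Kdr (0.14 ± 0.05) and Tek (0.24 ± 0.05). They were the most abundant of the 12 there, Kdr at 2031 and 2101 and Tek at 1176 and 1217 normalised fragments.

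Cardiomyocyte markers were lower in 8 and higher in 1 of 11 tested loci in each knockout. The higher one was Tbx5 in the Prdm16 knockout and Nppa in the PR domain knockout. They summed to 5104 and 5248 in the Prdm16 knockout, against 7391 and 7803 in its control. In the PR domain knockout they summed to 7666 and 7934, against 18269 and 18472 in its control. Smooth muscle and pericyte markers summed to 8839 and 9074 in the Prdm16 knockout, against 7581 and 7750 in its control, with 3 of 9 higher and 3 lower, and to 9078 and 9084 in the PR domain knockout, against 12850 and 13199 in its control, with 1 higher and 4 lower. Macrophage markers were higher in 7 of 8 and 8 of 8 loci in the Prdm16 and PR domain knockouts. The same held for visceral endoderm markers in 8 of 10 and 9 of 10, and for erythroid markers in 5 of 8 and 6 of 8. Against this, Hbb-y of the erythroid list was lower in the Prdm16 knockout. Sox7 of the visceral endoderm list was lower in the PR domain knockout. Between the wild-type sets, 11 of 12 endothelial and 8 of 11 cardiomyocyte markers were higher in the PR domain control, as were 7 of 9 smooth muscle and pericyte, 8 of 8 macrophage and 5 of 8 erythroid markers. In that set 9 of 10 visceral endoderm markers were lower and 1 higher, and 6 of 12 neural progenitor markers were lower and 2 higher. The endothelial marker Sox17 was lower there. Of all loci, 16.3% were called higher and 16.7% lower in that comparison. The part of these markers in the results on the Hes and Hey genes and Nrarp was not tested.

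Profiles over the 8 libraries were compared as the root mean square difference between log2 values centred per gene, a description over libraries that share their groups. The measure grows with how much a gene varies. Among the 6 tested genes Hes1 and Hes6 lay 0.237 apart, where the medians over candidates were 0.325 for Hes1 and 0.234 for Hes6. Hey1 and Hey2 lay 0.251 apart, where the medians over candidates were 0.381 and 0.382, and Hes1 and Heyl lay farthest apart (1.13). Of 10222 loci with a mean of at least 50 normalised fragments, those nearest to Hes1 were Poll (0.0934), Atp13a3 and Fam98c, and those nearest to Hes6 were Cox10 (0.0765), Rbm3-ps and Rpl37a. Hey1 lay nearest to Afap1l1 (0.086), Hspb8 and Arl2bp, and Hey2 to Ndrg4 (0.0763), Ssbp4 and Unc45b. Heyl, which varied most (root mean square 1.08 about its own mean), lay nearest to Myl2 (0.276, against a median of 1.09 over candidates), 1 of the cardiomyocyte markers above, then Sema3d and Ebf3. Nrarp lay nearest to Wasf3 (0.148), Spock2 and Il17rd. On FPKM, 2 of the 3 nearest to Nrarp and 1 of the 3 nearest to Hes6 were found again, and none for the other 4 genes.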

How the data were processed

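RNA was extracted with Trizol and RNeasy columns and made into TruSeq libraries, per the labels' protocols. Tools named in the submitters' processing notes, without roles, are Cufflinks 2.2.1, TopHat2 2.1.1, deepTools and SAMtools 1.5, with the mm10 build. The authors deposited a signal table (fragments at each locus over a library-wide size factor, per the file headers and the values) and FPKM values, which entered levels and alternatives. Within a library, values were whole multiples of 1 step (0.827 to 1.241), and 99.99 to 100.00% were whole fragments within a tolerance of 0.1. Loci without a gene name held 1.88 to 2.53% of fragments and were left out. The plan named limma for values over a size factor and edgeR for raw counts. The values were of the first kind, so limma 3.58.1 (trend, on log2(value + 1), R 4.3.3) was used. The alternatives included edgeR 4.0.16 and DESeq2 1.42.0 on the recovered fragments. A model of the 4 group means over 8 libraries was fitted to 16623 loci with at least 10 in at least 2 libraries (4 residual and 25.4 prior degrees of freedom), with Benjamini-Hochberg adjustment over all loci and a threshold of 0.05. Adding 1 before the log understates the fold changes of low genes. Genes and lists were chosen with earlier results of these data known, and genes named outside the 8 are listed pathway, marker or overlapping genes, chosen for the text partly after their values were seen, or nearest profiles. The fitting steps were tested on simulated data. Coordinates and transcripts are from GENCODE M21 on GRCm38, promoters from RefSeq. Chi-square over degrees of freedom between replicates was 1.40 to 2.23, above sampling noise. Intervals on fragments cover counting error only. Floors stand for the group at 0 and leave out the counting error of the other group.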

Additional observations from a re-analysis of the deposited data

Results flagged for a closer look

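The effect of the knockout differed between the Prdm16 knockout and the PR domain knockout for Heyl, with a difference of -1.30 on the log2 scale by the interaction contrast in limma (adjusted p = 0.00324), as both libraries of the Prdm16 knockout fell further below their control. For Hey1 the difference was 0.469 on the log2 scale (adjusted p = 0.0366), with the larger fall in the PR domain knockout. The call for Hey1 was lost under 10 of 19 alternative settings. That for Heyl passed under all 19, but on FPKM Heyl in the PR domain knockout was at +0.57, not called. In these 4 groups of 2 libraries no search for single outlying libraries was made.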

How the results depend on the processing

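Over the values of the 6 tested genes, 412 of 478 alternatives kept direction and side of the threshold. Of the rest, 50 lost a call, 4 gained one and 12 changed sign, and the cause was not tested. Some settings could not move a log2 value: the filter, the replicate block, the fit of the compared groups, and leaving out a library outside the comparison. They could move the adjusted p only. Values not called that stayed so also count as kept. The same limits hold for the counts of settings given above. With DESeq2, members called lower came to 2 in each knockout and 0 between the wild-type sets, no member was called higher in the difference, and loci called came to 3983, 1794, 1189 and 3388 in the Prdm16 knockout, the PR domain knockout, the difference and the wild-type sets, beside 6502, 3190, 2728 and 5481. On FPKM, members called lower came to 2 and 1 in the Prdm16 and PR domain knockouts, none was called higher in the difference, 0 lower and 1 higher between the wild-type sets, and loci called came to 2244, 582, 199 and 1717. No member was called higher in the difference with total-fragment scaling or with no filter, which left 1642 loci in the difference and 2 members lower between the wild-type sets, Hes5 and Hes7 in place of Nrarp. Leaving out 1 library gave 2 to 4 members lower in the Prdm16 knockout, 2 to 5 in the PR domain knockout, 0 to 1 higher in the difference and 0 to 1 lower between the wild-type sets. Hey2 in the Prdm16 knockout turned to 0.027 with TMM and with edgeR, 0.015 with DESeq2 scaling and with the DESeq2 test, and ranged from -0.12 to 0.074 when 1 library was left out. Hes6 there turned to 0.067 on FPKM and ranged from -0.22 to 0.051 when 1 library was left out, and between the wild-type sets from -0.12 to 0.23. Heyl in the PR domain knockout turned to 0.57 on FPKM. None of these values that changed sign was called.

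Differences between the replicates of a group correlated at -0.102 to 0.034 between groups over 10256 loci. Such values cannot show whether same-numbered libraries were paired. With the replicate block 4 and 4 members were lower in the Prdm16 and PR domain knockouts, and 6438, 3149, 2686 and 5442 loci were called. Of the loci called in the PR domain knockout, 44.2% were higher, and 54.4% were with DESeq2 scaling. In the difference these shares were 52.4% and, with total-fragment scaling, 37%. Depth limits Hes5 and Hes7, at 0 to 10 fragments.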
